A study of Mus musculus with 15 samples.

Results

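The mammary luminal progenitor genes Sox10, Kit, Elf5, Ehf, Mfge8, Lbp, Aldh1a3, Cd14 and S100b were followed in 15 mouse mammary tumors. The list was chosen by what is known of this cell type, with values of these same tumors in view, among them the levels of Sox10, Kit and S100b in the heterozygous tumors. Those levels are therefore a description, with no test. Each gene was read from the brightest transcript cluster that names it alone, and each of these 9 had 1 such cluster. They are 9 of 22180 genes on the array, and all 9 passed the filter on low values that left 14243 genes for testing. That filter asks for a value above the array's median on at least 5 arrays.

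All tumors came from ErbB2KI mice, a knock-in model of breast cancer driven by Erbb2, and were flash frozen at end burden. The homozygous tumors (HOM) carried Ctnnb1 fl/fl, the heterozygous tumors (HET) Ctnnb1 fl/wt and the wild-type tumors (WT) Ctnnb1 wt/wt, with 5 tumors each. Ctnnb1 encodes beta-catenin, and its floxed alleles were meant for deletion in the mammary epithelium. The labels give neither the promoter that drives the Cre recombinase nor the ages of the mice. They do not say either that each tumor had its own mouse, and a p-value here covers only the tumor-to-tumor spread, which may be partly technical. The Ctnnb1 level of the tumor labelled HOM 5 was 12.01, among those of WT 1 to WT 4 (11.71 to 12.10). That of the tumor labelled WT 5 was 11.22, among those of HOM 1 to HOM 4 (11.15 to 11.58). Both go against their labels, and HOM against WT is therefore also given without them.

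Luminal progenitors are the mammary epithelial cells that give rise to the ductal and alveolar luminal lineages, and in the mouse they are recognised by the receptor Kit. Elf5 and Ehf are Ets transcription factors of the secretory lineage, and Sox10 is a SoxE transcription factor best known from the neural crest that also marks mammary progenitors. In human breast cancer, luminal progenitor genes are a hallmark of basal-like tumors. These samples are whole tumors, so fewer cells of a type and less RNA per cell cannot be told apart in any value below. The epithelial identity of the tissue was checked with Epcam, Krt8 and Krt18, which lay above the upper quartile of every array. Epcam was lowest in HET 1, at 9.31, against 11.38 in the next lowest tumor. Other epithelial genes were weaker in HET 1, where the mean of 20 epithelial markers was 7.54, below that array's upper quartile of 7.83. Krt7 was 4.86 there, below the array's median of 5.58, so the check with 3 genes holds less well for HET 1.

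Values are log2 array values, listed from tumor 1 to tumor 5 of a genotype. Numbers follow accession order and have no other meaning. Over all clusters, the array medians were 5.54 to 5.73 and the upper quartiles 7.72 to 7.83. Sox10, Ehf, Kit, Mfge8, Lbp, Cd14, Elf5 and Aldh1a3 lay above the median on all 15 arrays, and S100b on 8 of them.

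Promoter windows of 300 bases around the annotated start were taken from RefSeq on GRCm38.p6 for 4 of the 9 genes (Elf5, Kit, Mfge8 and S100b). The first 3 are shown because their levels share the lowest tumors with Sox10. The Elf5 window is chr2:103411848-103412147 on the plus strand, that of Kit is chr5:75574737-75575036 on the plus strand and that of Mfge8 is chr7:79149011-79149310 on the minus strand. Capitals mark matches to a Sox motif (ACAAAG or ACAATG) or an Ets motif (AGGAAG), searched on both strands, and CATTGT is ACAATG read on the other strand. The motifs do not overlap here.
Elf5: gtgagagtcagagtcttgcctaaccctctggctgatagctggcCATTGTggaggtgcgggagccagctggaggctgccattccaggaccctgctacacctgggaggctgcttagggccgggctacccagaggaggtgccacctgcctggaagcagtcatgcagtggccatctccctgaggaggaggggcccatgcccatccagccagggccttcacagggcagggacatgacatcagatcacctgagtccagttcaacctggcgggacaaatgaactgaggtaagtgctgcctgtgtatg
Kit: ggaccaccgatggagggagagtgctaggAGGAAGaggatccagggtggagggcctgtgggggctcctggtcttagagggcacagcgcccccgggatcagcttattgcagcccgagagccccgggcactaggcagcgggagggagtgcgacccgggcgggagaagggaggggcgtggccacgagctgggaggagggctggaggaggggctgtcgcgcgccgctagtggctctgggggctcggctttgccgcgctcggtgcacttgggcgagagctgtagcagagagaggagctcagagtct
Mfge8: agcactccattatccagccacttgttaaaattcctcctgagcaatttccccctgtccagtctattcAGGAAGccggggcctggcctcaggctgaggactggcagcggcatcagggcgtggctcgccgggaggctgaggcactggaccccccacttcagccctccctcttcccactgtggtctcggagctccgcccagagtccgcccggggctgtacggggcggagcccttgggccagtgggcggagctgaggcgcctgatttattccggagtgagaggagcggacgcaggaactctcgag
The Elf5 window held 1 Sox match, at bases 44 to 49 of the window, and no Ets match. A second Elf5 window, chr2:103423818-103424117, held neither. Kit held 1 Ets match at bases 29 to 34, Mfge8 held 1 at bases 67 to 72, and S100b held 2, at bases 98 to 103 and 287 to 292. None of the Kit, Mfge8 and S100b windows held a Sox match. Of 32851 promoter windows in the same table, 28.6% held a Sox match and 35.4% an Ets match, so a match in these windows is common and is given as a description only. Ehf, Lbp, Aldh1a3, Cd14 and Sox10 have no window shown here.

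Among the transcription factors, Sox10 split the HET tumors. It was 10.95, 10.47, 10.92, 10.65 and 10.88 in HOM tumors, 6.92, 8.14, 10.66, 7.25 and 10.61 in HET tumors, and 10.61, 10.60, 10.65, 11.73 and 10.87 in WT tumors. HET 1, HET 2 and HET 4 were the 3 lowest of all tumors, while HET 3 and HET 5 lay inside the HOM and WT range. The other 12 tumors spanned 10.47 to 11.73, with WT 4 at the top.

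Elf5, an Ets factor required for alveolar differentiation, followed the same split. It was 9.40, 9.24, 9.29, 8.87 and 8.51 in HOM tumors, 5.70, 7.43, 9.42, 5.82 and 8.65 in HET tumors, and 9.84, 8.97, 9.08, 9.23 and 9.35 in WT tumors. In HET 1 and HET 4 it lay close to the median of all clusters. HET 3, in contrast, was as high as the highest HOM tumor.

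Ehf, an Ets factor of epithelial cells, was 11.13, 10.84, 11.26, 10.44 and 9.66 in HOM tumors, 7.58, 10.37, 10.99, 8.28 and 10.69 in HET tumors, and 9.64, 8.77, 10.001, 10.81 and 11.12 in WT tumors. HET 1 and HET 4 were the 2 lowest tumors. HET 2 ranked 7 of 15 from the bottom, so Ehf did not share the third low tumor of Sox10 and Elf5, and WT 2 was low as well.

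Kit, the receptor tyrosine kinase for stem cell factor, was 10.59, 11.06, 11.81, 10.43 and 9.97 in HOM tumors, 8.51, 9.04, 10.80, 9.18 and 10.19 in HET tumors, and 10.03, 10.26, 10.39, 11.12 and 11.05 in WT tumors. Its 3 lowest values were again those of HET 1, HET 2 and HET 4. The gap was narrower than for Sox10: HET 4 reached 9.18 and the next tumor, labelled HOM 5, reached 9.97.

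Mfge8 encodes lactadherin, a milk fat globule protein that bridges phosphatidylserine on dying cells to integrins of phagocytes. It was 13.21, 12.94, 12.92, 13.005 and 12.75 in HOM tumors, 11.40, 12.004, 12.67, 12.02 and 12.70 in HET tumors, and 12.35, 12.51, 12.89, 13.08 and 13.09 in WT tumors. HET 1, HET 2 and HET 4 were the 3 lowest here too. All 5 HOM tumors lay above all 5 HET tumors, the one member whose groups were apart in any pair of genotypes, against 0.611% of all tested genes that were higher in every HOM than in every HET tumor.

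Sox10, Kit, Elf5 and Mfge8 thus had the same 3 lowest tumors, HET 1, HET 2 and HET 4. Of all 14243 tested genes, 736 (5.17%) had these tumors as their 3 lowest and 453 (3.18%) as their 3 highest. The genes were listed with part of this pattern known, so the count of 4 in 9 is a description.

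Lbp encodes the lipopolysaccharide-binding protein, and Cd14 the co-receptor that takes lipopolysaccharide from it. Lbp was 12.09, 11.70, 11.79, 11.53 and 10.98 in HOM tumors, 10.79, 9.95, 11.69, 11.04 and 10.61 in HET tumors, and 11.79, 11.35, 12.03, 11.73 and 11.74 in WT tumors. HET 2 was lowest, and HET 5, where Sox10 was high, was the second lowest, so Lbp did not follow the Sox10 split. Cd14 was 11.20, 11.85, 12.01, 11.54 and 10.85 in HOM tumors, 10.07, 11.16, 11.19, 10.69 and 11.87 in HET tumors, and 9.70, 9.52, 10.85, 11.14 and 11.92 in WT tumors. Its lowest values were those of WT 2 and WT 1, and the 3 genotypes overlapped. Cd14 is also a monocyte and macrophage gene, and its correlation with the mean of 13 macrophage markers over the 15 tumors was 0.04.

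Aldh1a3, which makes retinoic acid, ran against the others in part of the HET tumors. It was 7.51, 10.32, 9.18, 9.14 and 7.12 in HOM tumors, 6.08, 10.50, 9.48, 10.42 and 7.22 in HET tumors, and 6.87, 8.16, 7.74, 9.01 and 8.37 in WT tumors. HET 2 and HET 4, both low in Sox10, had the highest values of all 15 tumors. HET 1, also low in Sox10, had the lowest.

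S100b encodes a calcium-binding protein known from glia. It was 6.69, 4.96, 5.55, 5.40 and 8.35 in HOM tumors, 5.19, 4.15, 6.12, 4.87 and 4.26 in HET tumors, and 5.73, 8.59, 8.52, 6.95 and 8.49 in WT tumors. In HET tumors other than HET 3 it lay below the array medians (5.57 to 5.62), and in HET 2 and HET 5 near the lower quartiles (4.15 to 4.22), so the size of its difference is uncertain. Its tumors fell differently from those of Sox10: HET 5 was low in S100b and high in Sox10, and 3 HOM tumors lay below every WT tumor. Over the 15 tumors S100b correlated at 0.65 with the mean of 9 Schwann cell markers.

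**Figure D1:**
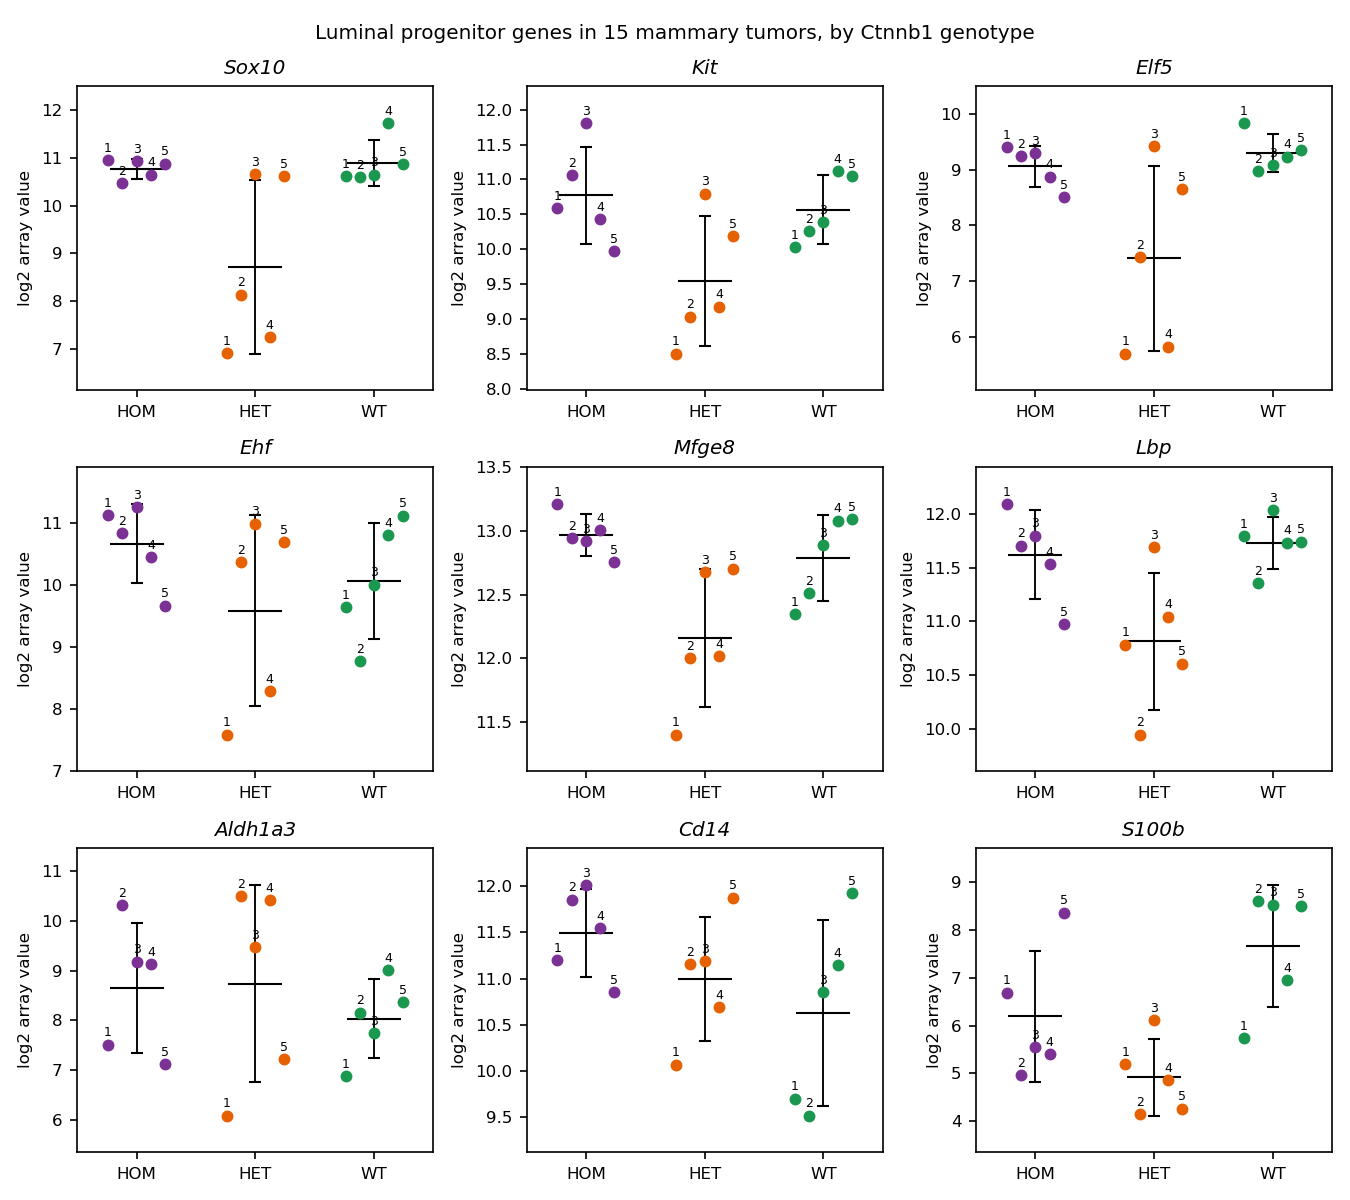
Log2 array value (vertical axis) of each of the 9 genes in every tumor, one panel per gene, with HOM, HET and WT from left to right and 5 points each. In the Sox10, Kit, Elf5 and Mfge8 panels the 3 lowest points are HET 1, HET 2 and HET 4, and in the Sox10 panel HET 3 (10.66) and HET 5 (10.61) lie with the HOM and WT points.

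The comparison of HET with WT tumors is descriptive here, because HET values entered the choice of the genes. Sox10 averaged 8.72 ± 1.81 in HET and 10.89 ± 0.48 in WT (SD, n = 5 each), a difference of -2.17 on the log2 scale (95% interval -3.54 to -0.81), or a 4.51-fold lower geometric mean. Elf5 averaged 7.41 ± 1.66 in HET and 9.29 ± 0.34 in WT, a difference of -1.89. Kit averaged 9.54 ± 0.93 in HET and 10.57 ± 0.49 in WT, a difference of -1.03. For these 3 genes the HET SD exceeded the WT SD, and the low HET values were those of HET 1, HET 2 and HET 4.

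S100b averaged 4.92 ± 0.80 in HET and 7.66 ± 1.28 in WT, a difference of -2.74. Lbp averaged 10.82 ± 0.63 in HET and 11.73 ± 0.24 in WT (-0.91), Mfge8 averaged 12.16 ± 0.54 in HET and 12.78 ± 0.34 in WT (-0.62), and Ehf averaged 9.58 ± 1.54 in HET and 10.07 ± 0.94 in WT (-0.49). Aldh1a3 and Cd14 had higher HET means, by 0.71 and 0.37. The Ehf difference rested on HET 1, without which it was 0.0146. In all, 7 of the 9 had a lower and 2 a higher HET mean, with a median difference of -0.91 beside -0.03 over all tested genes.

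None of the 9 passed the limma test across all genes in HET against WT (0 called, adjusted p from 0.207 to 0.765), where 2 genes, 0.014%, were called in all. At an unadjusted p under 0.05 there were 6 of the 9, against 13.4% of all tested genes. Since the choice of the genes used this contrast, nothing is read from these counts. For 0 of the 9 did all HET tumors lie below or above all WT tumors, as they did for 1.05% (below) and 0.534% (above) of all tested genes. Sox10, Kit and Mfge8 had 3 HET tumors below every WT tumor, and Elf5, Lbp and S100b had 4.

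The comparison of HOM with WT asked whether these genes differ in tumors with both alleles floxed. Sox10 averaged 10.77 ± 0.21 in HOM and 10.89 ± 0.48 in WT, so that HOM minus WT was -0.12 (95% interval -1.48 to 1.25). Elf5 averaged 9.06 ± 0.37 in HOM and 9.29 ± 0.34 in WT (-0.23, interval -1.49 to 1.03). Kit averaged 10.77 ± 0.70 in HOM and 10.57 ± 0.49 in WT (0.20, interval -0.71 to 1.12). These intervals are wide on both sides of 0, so the values do not show that the genotypes are alike. The fit shares one spread among all genotypes. For these genes the intervals therefore also hold the wider HET spread (SD 1.81 for Sox10, 1.66 for Elf5 and 0.93 for Kit).

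Mfge8 averaged 12.97 ± 0.17 in HOM and 12.78 ± 0.34 in WT (0.18, interval -0.31 to 0.68), and Lbp 11.62 ± 0.41 in HOM and 11.73 ± 0.24 in WT (-0.11, interval -0.70 to 0.48). Ehf was 10.67 ± 0.64 in HOM and 10.07 ± 0.94 in WT (0.60, interval -0.79 to 1.98). Cd14 was 11.49 ± 0.47 in HOM and 10.63 ± 1.01 in WT (0.86, interval -0.08 to 1.81), and Aldh1a3 was 8.65 ± 1.32 in HOM and 8.03 ± 0.79 in WT (0.62, interval -1.19 to 2.44). S100b had the widest gap, 6.19 ± 1.37 in HOM and 7.66 ± 1.28 in WT (-1.47, interval -2.94 to 0.0015). Its values in HOM 2, HOM 3 and HOM 4 (4.96, 5.55 and 5.40) lay below those arrays' medians (5.57 to 5.62). The size of this gap is therefore uncertain too. No gene of the 9 had all HOM tumors below or above all WT tumors, against 0.169% (below) and 0.112% (above) of all tested genes. The highest S100b value in HOM, 8.35, was that of the tumor labelled HOM 5.

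None of the 9 passed in HOM against WT (limma, every adjusted p rounding to 1), where 0 genes, 0%, were called in all. At an unadjusted p under 0.05 there were 0 of the 9 and 1.7% of all tested genes. Of the 9, 5 had a higher and 4 a lower HOM mean, with a median difference of 0.18 beside -0.01 over all tested genes. The direction of Sox10, Kit and Lbp turned with 1 tumor left out, to 0.0922 without WT 4, -0.0554 without HOM 3 and 0.0511 without the tumor labelled HOM 5. Without the tumors labelled HOM 5 and WT 5, Cd14 differed by 1.35, Ehf by 1.11, Aldh1a3 by 1.09, Kit by 0.52 and S100b by -1.80, and none of the 9 passed.

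HOM against HET shares the HET tumors with the first comparison, so it too is given as a description. The HOM means were higher by 2.06 for Sox10, 1.66 for Elf5, 1.27 for S100b, 1.23 for Kit, 1.08 for Ehf, 0.81 for Mfge8, 0.80 for Lbp and 0.49 for Cd14, and that of Aldh1a3 was lower, at -0.09, but higher by 0.0990 to 0.35 without HOM 1, HOM 5, HET 2, HET 3 or HET 4. The median difference was 1.08, beside 0.01 over all tested genes. None of the 9 was called (limma, adjusted p from 0.587 to 0.983), with 0 genes, 0%, called in all, and 5 of the 9 had an unadjusted p under 0.05, against 7.93% of all tested genes.

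**Figure D2:**
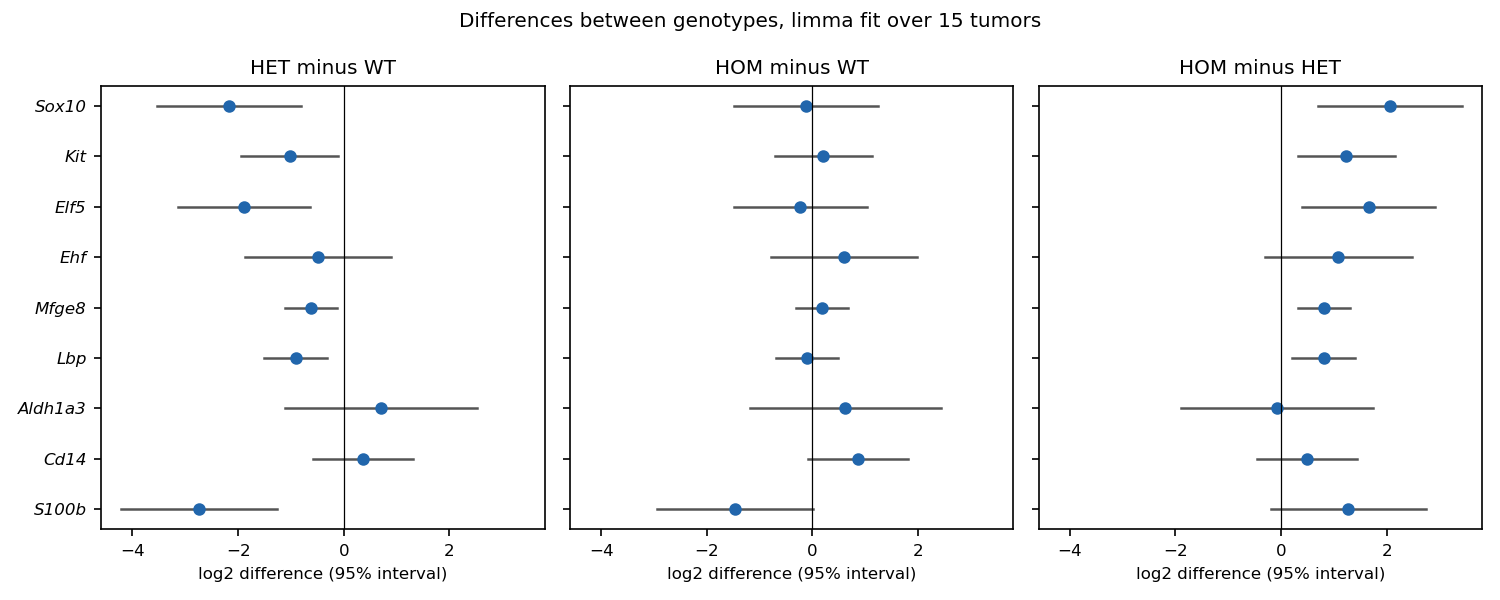
Log2 difference between genotype means with its 95% interval from the limma fit (horizontal axis) for each of the 9 genes, one panel per pair of genotypes. In HET minus WT, 7 points lie left of 0, with S100b (-2.74) and Sox10 (-2.17) farthest, while in HOM minus WT every interval includes 0.

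Which genes followed Sox10 was described with the Pearson correlation r over the 15 tumors. Sox10 takes 2 separate levels, 3 low tumors and 12 high ones, so r over all 15 mostly records whether a gene shares that split. The value over the 10 HOM and WT tumors, which do not include the split, is therefore given beside it. No p is attached, and the tumors share array and platform.

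Elf5 was the most like Sox10 of the other 8 genes, at r = 0.94 over 15 tumors, the 7th highest of 14242 genes. Mfge8 followed at 0.90 and Kit at 0.85. By Spearman rank correlation the order was another, with Mfge8 at 0.78, Ehf at 0.69, Kit at 0.68, Lbp at 0.60 and Elf5 at 0.55. Over the 10 HOM and WT tumors, r was 0.02 for Elf5, 0.44 for Mfge8 and 0.36 for Kit. Within the 12 tumors of high Sox10 it was 0.06, 0.48 and 0.38 for these genes. Their r with Sox10 was thus lower where the split is left out, most of all for Elf5. Sox10 varies little in those tumors (10.47 to 10.95 in all but WT 4, at 11.73). A low r there does not show that a gene is unrelated to Sox10.

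Ehf had r = 0.72, which was 0.14 without the 2 tumors farthest from the median of Sox10. Lbp had 0.63 and S100b 0.49. Over the HOM and WT tumors these 3 genes had 0.37, 0.08 and 0.12. Cd14 had 0.32 and Aldh1a3 -0.10 over 15 tumors. At r of at least 0.8 over 15 tumors there were 3 of the 8 genes, Elf5, Mfge8 and Kit, against 1.98% of all tested genes, and over the HOM and WT tumors 0 of the 8, against 0.962%. Without WT 4 that share was 0.112% (16 genes), again with 0 of the 8. The first count rests on the HET tumors that led to the list.

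Among themselves, some of the 9 genes stayed correlated once the split was set aside. Over the 10 HOM and WT tumors Ehf and Cd14 had r = 0.89, Ehf and Mfge8 0.82, Mfge8 and Cd14 0.81, Kit and Ehf 0.78, and Elf5 and Lbp 0.71. Over all 15 tumors these pairs had 0.77, 0.81, 0.57, 0.79 and 0.66, in the same order. Elf5 and Lbp had 0.43 without the tumor labelled HOM 5. Elf5 and Mfge8, at 0.82 over 15 tumors, had -0.12 over these 10, but 0.61 without WT 1. The pairs among Ehf, Cd14, Mfge8 and Kit named above stayed between 0.71 and 0.92 with any 1 of the 10 tumors left out. The other pairs among these genes were lower. Kit and Cd14 had 0.74 (0.68 to 0.79 with 1 tumor left out), and Kit and Mfge8 0.54 (0.41 to 0.70). Kit and Aldh1a3 had 0.71 (0.64 to 0.78).

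**Figure D3:**
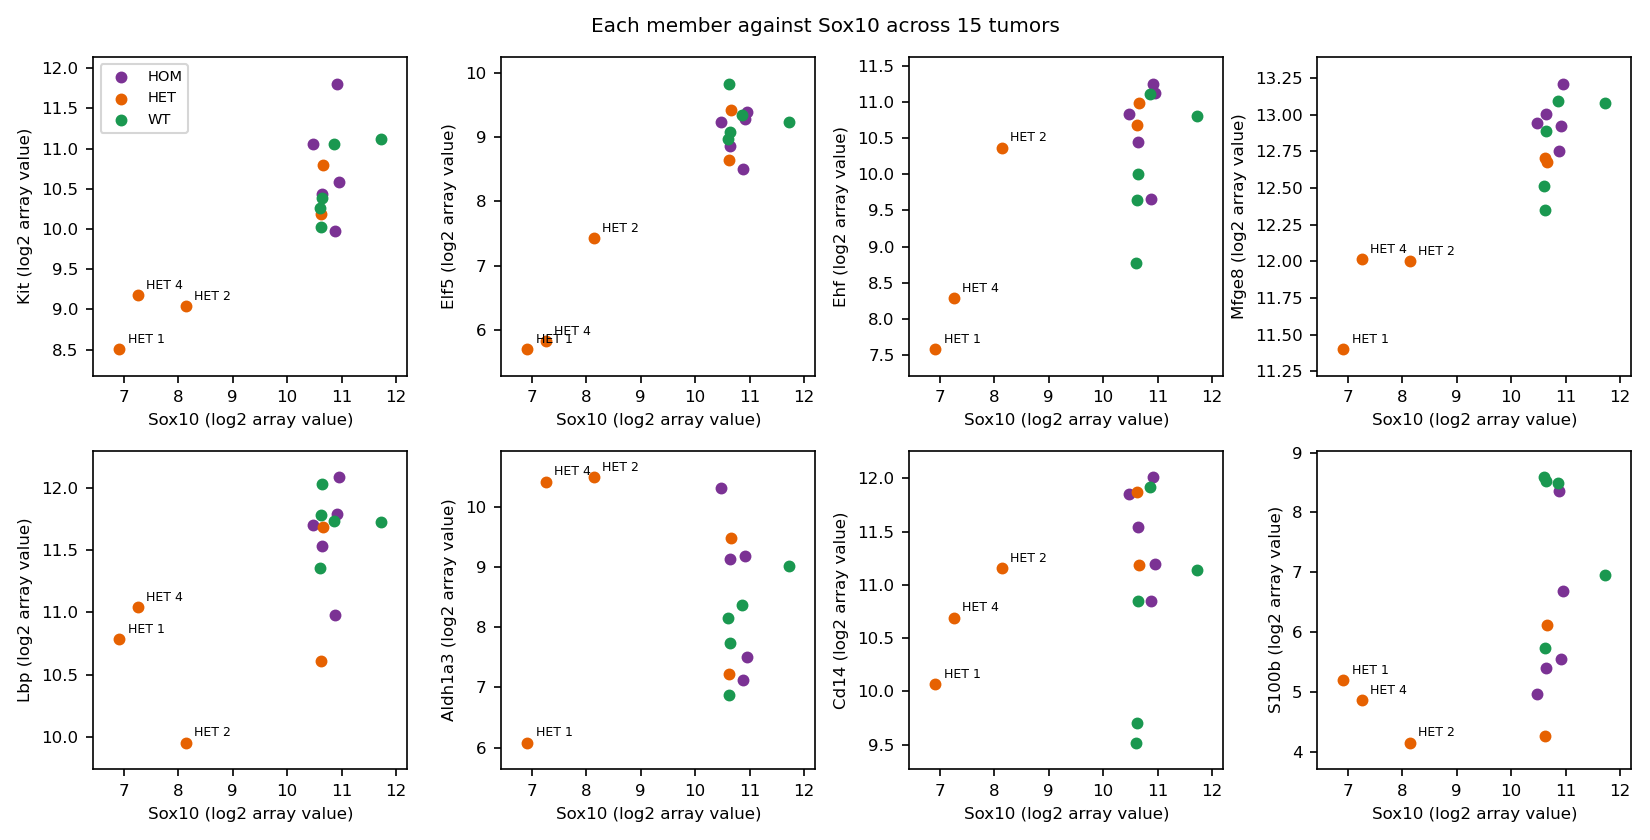
Each of the other 8 genes (vertical axis, log2 array value) against Sox10 (horizontal axis, log2 array value), with 1 point per tumor, coloured HOM, HET or WT. The 3 points at Sox10 values from 6.92 to 8.14 are HET 1, HET 2 and HET 4. To their right the 12 other tumors form a cluster, where r of Elf5 is 0.06. Sox10 varies little there (10.47 to 10.95 in all but WT 4), so a slope is poorly determined.

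Among all tested genes, with 2 uncharacterised gene models within the first 12 left out, those most like Sox10 over 15 tumors were Arhgap8 (r = 0.98), Sntb1 and Nfib (both 0.96), Fbxo32 (0.95) and Hpdl (0.94), followed by Elf5, Cerox1, Aldoc, Enpp3 and Ppfibp2 (0.93 or 0.94). Arhgap8 was 5.87, 6.56 and 6.39 in HET 1, HET 2 and HET 4, against 8.40 to 9.45 in the other 12 tumors. Nfib, a nuclear factor I transcription factor, was 10.64, 11.19 and 11.03 in these tumors, against 11.90 to 12.59. Over the 10 HOM and WT tumors r was 0.78 for Arhgap8 and 0.77 for Sntb1, 0.40 for Nfib, 0.09 for Hpdl and -0.24 for Enpp3. The value of Arhgap8 rested on WT 4, the tumor of highest Sox10, and that of Enpp3 changed sign without this tumor. Without WT 4, r was 0.22 for Arhgap8, 0.58 for Sntb1, 0.50 for Nfib, 0.12 for Hpdl and 0.45 for Enpp3.

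At the opposite end, with 1 gene model left out, lay Slc16a9 (-0.96), Slc4a8 (-0.95), Mmp8 (-0.94), Septin8 and Lrrk2 (both -0.92). Mmp8, the collagenase of neutrophils, was 11.31, 9.84 and 10.64 in HET 1, HET 2 and HET 4, against 5.65 to 8.04 in the other 12 tumors. Mmp8 was named for its low r with Sox10, so its high values in these 3 tumors follow from that choice. Not every neutrophil gene shared them: S100a8 was 11.94, 12.10 and 9.70 in HET 1, HET 2 and HET 4, but 11.42 in HOM 2.

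**Figure D4:**
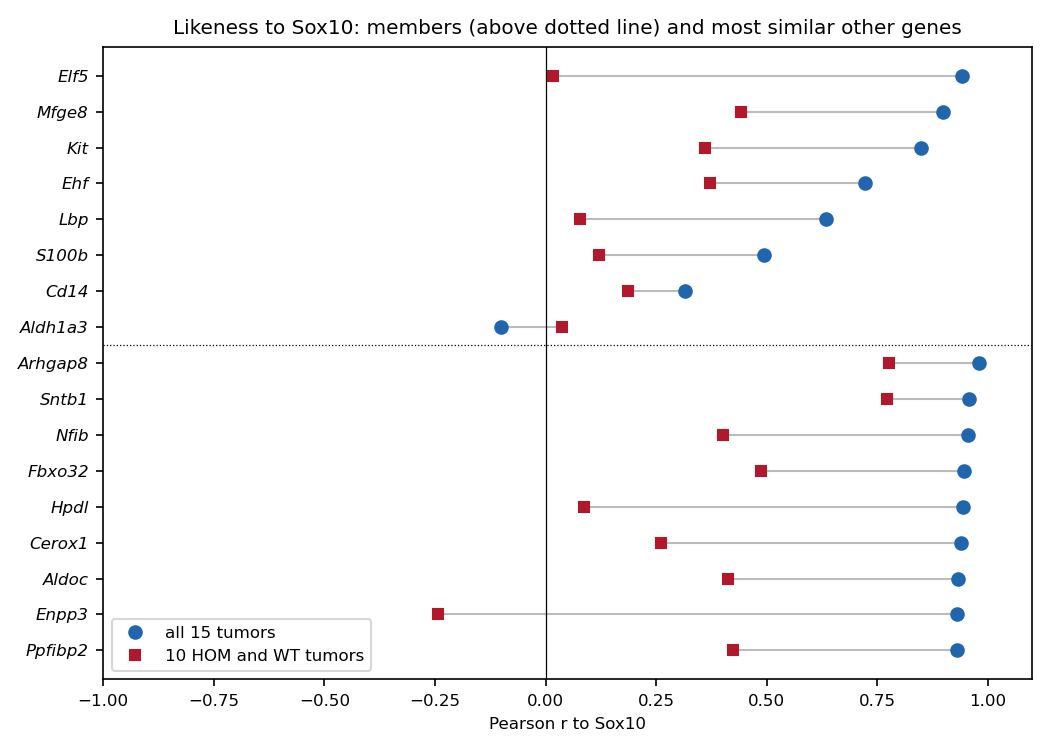
Pearson r to Sox10 (horizontal axis) over all 15 tumors (circles) and over the 10 HOM and WT tumors (squares), for the other 8 genes of the list above the dotted line and the other genes of the array most like Sox10 below it. The Elf5 circle is at 0.94 and its square at 0.02, and those of Arhgap8 are at 0.98 and 0.78, a square that moves to 0.22 without WT 4.

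Means of neutrophil and leukocyte markers moved with the Sox10 split, and those of macrophage and epithelial markers did so only in part. The mean of 11 neutrophil markers was 10.75, 10.64 and 9.39 in HET 1, HET 2 and HET 4, against 6.04 to 8.99 in the other 12 tumors, and that of 10 leukocyte markers was 10.13, 9.59 and 9.77, against 7.77 to 9.44. Of the 11 neutrophil markers, 11 had a higher HET than WT mean and 0 were called. The mean of 20 epithelial markers was 7.54, 10.32 and 9.41 in these HET tumors, against 9.85 to 10.73, so HET 2 was low in Sox10 with epithelial markers inside the range of the others. The mean of 13 macrophage markers was 10.15, 9.42 and 10.36 in HET 1, HET 2 and HET 4, against 7.87 to 9.98. Single tumors also stood apart in other tissue. Skeletal muscle markers averaged 11.17 in HET 3, against 7.41 in HET 4, the next highest. B and plasma cell markers averaged 9.78 in HET 1, against at most 8.05 elsewhere. The part of these cell types in the results was not tested.

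With the epithelial marker mean as a covariate, an alternative fit, HET minus WT was -1.44 for Sox10, -1.16 for Elf5, -0.59 for Kit and 0.39 for Ehf. With the leukocyte mean it was -1.37, -0.96, -0.49 and 0.16 for these genes, so Ehf changed direction in both. Kit also marks mast cells, and the mean of 5 mast cell markers was 8.71, 7.23 and 8.07 in HET 1, HET 2 and HET 4, against 4.96 to 7.44 in the others, so 2 of these 3 tumors of low Kit were the highest in mast cell markers. Sox10 also marks Schwann cells, and the mean of 9 Schwann cell markers was 6.81, 6.85 and 7.29 in these 3 tumors, within the range of the others, 6.51 to 7.70. Of 8 melanocyte markers, 5 (Dct, Tyrp1, Tyr, Slc45a2 and Oca2) did not pass the filter on low values.

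**Figure D5:**
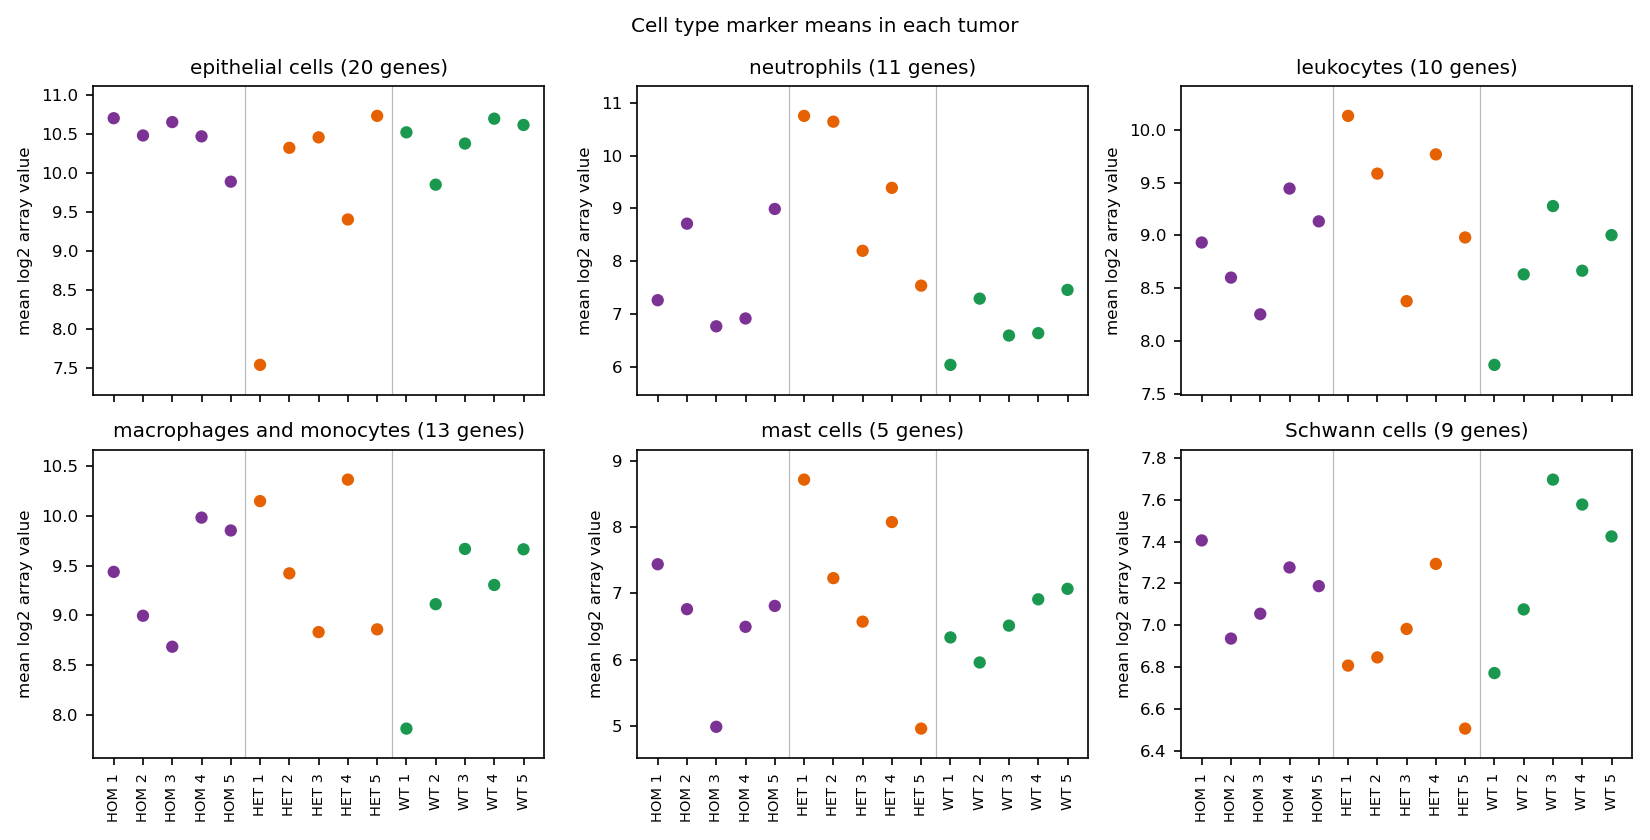
Mean log2 array value (vertical axis) of cell type marker lists in each of the 15 tumors (horizontal axis, HOM, then HET, then WT), one panel per list. HET 1, HET 2 and HET 4 have the 3 highest neutrophil means (9.39 to 10.75), and HET 1 has the lowest epithelial mean (7.54).

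Other genes of the same cells and pathways came from lists drawn up with earlier results known, and their counts stand beside the 0.014% of all genes called in HET against WT. Of 20 further luminal progenitor and alveolar genes, 14 had a lower and 6 a higher HET than WT mean, 0 were called, and the median difference was -0.40. The milk protein kappa-casein, Csn3, averaged 11.42 ± 0.997 in HET and 12.47 ± 0.23 in WT. Wfdc18, a whey acidic protein relative, averaged 8.17 ± 1.25 in HET and 9.60 ± 0.47 in WT, whereas the integrin Itga2 averaged 10.72 ± 0.73 in HET and 8.99 ± 1.32 in WT. Gabrp, a GABA receptor subunit, was 5.75, 10.15 and 7.68 in HET 1, HET 2 and HET 4, against 9.85 to 12.19 in the other tumors. Gabrp and Lcn2, like Erbb3 and Kitl below, were named after their values were seen. Gabrp, Csn3, Lcn2 and Wfdc18 had r of 0.85 to 0.88 with Sox10 over 15 tumors. They were the only 4 of the 20 at 0.8 or above, beside 1.98% of all tested genes. Over the 10 HOM and WT tumors these genes had 0.52, -0.39, 0.38 and 0.01, in the same order. The median r of the 20 over 15 tumors was 0.26, and that of Itga2 was -0.38, so the list did not follow Sox10 as a whole. In HOM against WT 0 of the 20 were called, with a median difference of 0.10.

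Of 16 SoxE and neural crest or Schwann genes linked to Sox10, 13 were tested. Of these, 5 had a lower and 8 a higher HET than WT mean, and 1 was called, with a lower HET mean. This was Cdh19, a Schwann and neural crest cadherin, which averaged 4.18 ± 0.47 in HET and 7.70 ± 0.61 in WT (limma, adjusted p = 0.0059). The call held in 24 of 26 alternatives that tested the gene and was lost with array weights (adjusted p = 0.0592) and with the leukocyte covariate (0.0796), with a lowest adjusted p of 0.00243 among the 26. It was as low in HET 3 (4.41) and HET 5 (3.74), where Sox10 was high, as in HET 1, HET 2 and HET 4 (3.81 to 4.87), so it did not share the Sox10 split. The HET values lay below the array medians, and those of HET 1, HET 4 and HET 5 below the lower quartiles. Cdh19 thus passed the filter on low values only through WT and HOM tumors, so its p is given as a description. The size of its difference is uncertain. Sox8, a SoxE relative of Sox10, averaged 6.82 ± 0.75 in HET and 7.93 ± 0.46 in WT and had r = 0.85 with Sox10. Erbb3, the neuregulin receptor that pairs with Erbb2, had r = 0.86 and was 7.19, 9.66 and 8.70 in HET 1, HET 2 and HET 4, against 9.42 to 11.32 in the others. The list's median difference was 0.05. Its median r with Sox10 over 15 tumors was 0.12, and Sox8 and Erbb3 were the only 2 at 0.8 or above. Over the 10 HOM and WT tumors these 2 had 0.59 and 0.43.

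Of 14 other Ets factors, 10 had a higher and 4 a lower HET mean, 0 were called, and the median difference was 0.13. Etv5 averaged 9.10 ± 0.76 in HET and 10.23 ± 0.94 in WT, while Elf4 averaged 9.21 ± 0.63 in HET and 7.98 ± 0.69 in WT, so the Ets relatives did not move one way. Spi1, the Ets factor of myeloid cells, averaged 8.92 ± 0.65 in HET and 8.24 ± 0.57 in WT. Of 11 tested genes for the Kit ligand and its signalling partners 0 were called, with a median difference of -0.07. Kitl, the ligand itself, was 7.57 to 9.66 in HET and 8.30 to 9.67 in WT, and its r with Sox10 was -0.01.

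Of 9 tested lipopolysaccharide receptor genes beside Lbp and Cd14, 0 were called and the median difference was 0.22, with Ly96, the Tlr4 co-receptor, at 10.81 ± 0.44 in HET and 9.82 ± 0.65 in WT. Of 10 tested retinoic acid genes beside Aldh1a3, 0 were called and the median was 0.19, with the retinol transporter Stra6 at 11.15 ± 0.90 in HET and 9.65 ± 1.73 in WT. Of 8 phosphatidylserine uptake genes beside Mfge8, 0 were called and the median was -0.09, with the bridging ligand Gas6 at 10.43 ± 0.79 in HET and 11.27 ± 1.29 in WT. Of 11 tested S100 genes beside S100b, 0 were called and the median was 0.17. Within that family S100a9, a neutrophil gene, averaged 7.92 ± 1.42 in HET and 5.70 ± 0.21 in WT, and S100a1 averaged 10.83 ± 0.28 in HET and 11.62 ± 0.56 in WT.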

How the data were processed

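Total RNA of 15 mouse mammary tumors, 5 per Ctnnb1 genotype, was profiled on Affymetrix whole-transcript arrays from 100 ng per tumor, per the labels' protocols. Affymetrix Expression Console and the Transcriptome Analysis Console served the authors, per the submitters' processing notes, which name no version. Background correction and normalization are not stated in these sources. In the deposited table each transcript cluster has 1 value per tumor. The range of 1.06 to 13.9 fits log2 intensities, and the authors' values were used on that scale. Scanner files and detection calls were not used here, and precision is limited by how many arrays there are.

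Of 41345 clusters, 23521 carried exactly 1 symbol in the platform annotation, 23328 of these matched a RefSeq table by Entrez ID, and 1814 with several symbols named no gene. The cluster with the highest mean was kept per gene. One limma model (version 3.58.1, R 4.3.3) held all 3 genotypes, with 12 residual degrees of freedom, moderated variances and two-sided p-values. These were adjusted by Benjamini-Hochberg over 14243 genes and called at 0.05. Likeness to Sox10 was Pearson's r, and the genes named as most and least like it were the 10 highest and the 5 lowest over 15 tumors after leaving out uncharacterised gene models (symbols that start with Gm and a digit or end in Rik). From each further list, the 4 members with the smallest p were open to naming, and 4 genes outside this rule are marked as such. The genes and lists were chosen with earlier results of these data known. Alternatives varied the filter, normalization, weights, covariates and tumors left out. The likeness within the 12 tumors of high Sox10 and without WT 4, and the alternatives for Cdh19, were added after seeing the data.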

Additional observations from a re-analysis of the deposited data

Results flagged for a closer look

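Sox10 in WT 4 was 11.73, while the other 4 WT tumors lay between 10.60 and 10.87. The gap to its nearest neighbour was 0.761 of the whole WT range, above Dixon's 95% critical value of 0.71 for 5 samples. Of 27 groups tested (9 genes in 3 genotypes) this was the 1 that stood out so far, and chance marks about 1 in 20 groups.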

How the results depend on the processing

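Under all 81 alternatives tried for the 3 comparisons, 0 of the 9 genes were called, and the smallest adjusted p of any was 0.0617 (limma). Of 726 recomputed differences of these genes, 711 kept their direction. Genes called in HET against WT numbered 2, and 0 with a 75th percentile filter, array weights or a leukocyte covariate, 1 with renewed quantile normalization, only the genotypes compared or an epithelial covariate, 10 without HET 1 and HET 3, and 1 to 48 with 1 tumor left out (48 without HET 3, 18 without HET 5). Without the tumors labelled HOM 5 and WT 5, 4 genes were called in HOM against WT and 6 in HOM against HET, instead of 0. HOM against HET called 1 without HET 1 and HET 3 and 0 to 3 with 1 tumor left out. Ehf in HET against WT turned from -0.49 to 0.39 with the epithelial and 0.16 with the leukocyte covariate, and ranged from -0.84 to 0.0146 with 1 tumor left out. In HOM against WT, Sox10 turned to 0.12 and Elf5 to 0.0398 with the leukocyte covariate, and Lbp to 0.0539 without HOM 5 and WT 5. With 1 tumor left out, Sox10 ranged from -0.19 to 0.0922, Kit from -0.0554 to 0.40 and Lbp from -0.23 to 0.0511. In HOM against HET, Aldh1a3 turned to 0.30 without HOM 5 and WT 5 and ranged from -0.75 to 0.35 with 1 tumor left out. S100b was not tested under the 75th percentile filter. The cause of these changes was not tested. No paired analysis was possible because replicate numbers follow accession order.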

Other observations

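The genes closest to each of the other members over 15 tumors differed from those closest to Sox10. Kit lay nearest Pole3 (r = 0.93, and 0.88 over the 10 HOM and WT tumors), Elf5 nearest the casein gene Csn3 (0.97 and 0.79) and Ehf nearest Plekhb1 (0.95 and 0.94). Mfge8 lay nearest Ctnnbip1, which encodes an inhibitor of beta-catenin (0.96 and 0.94), and Aldh1a3 nearest the hemidesmosome collagen gene Col17a1 (0.94 and 0.86). Cd14 lay nearest Slc44a1 (0.90 and 0.90), S100b nearest Gnao1 (0.82 and 0.90) and Lbp nearest Slc25a12 (0.89 and 0.73). These values were found after seeing the data and carry no test.

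Several genes like Sox10 lie on its own chromosome, 15. Of the 10 genes named as most like it over 15 tumors, which leave out gene models, Arhgap8, Sntb1 and Fbxo32 do, as do Slc4a8 and Lrrk2 among the 5 named as least like it. Of all tested genes with a known chromosome, 601 of 14223 (4.23%) share it, against 18 of 281 (6.41%) with r of at least 0.8 over 15 tumors and 27 of 137 (19.7%) over the 10 HOM and WT tumors. Without WT 4, the tumor of highest Sox10, 16 genes reached 0.8 over the remaining 9 and 3 of them (18.8%) share the chromosome. In WT 4 the genes of that chromosome lay a median of 0.23 above their own medians over the 15 tumors, against 0 for other chromosomes. The tumor labelled HOM 5, with Sox10 at 10.88, also had an offset, 0.12 against -0.06. The 20 nearest tested neighbours of Sox10 had a median r of 0.12 over 15 tumors. Of these, 2 reached 0.8, Pick1 (0.86) and Gm10863 (0.82), both named after their values were seen. Over the 10 HOM and WT tumors these 2 had -0.06 and 0.28.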
